A study of Mus musculus with 12 samples.

Results

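Macrophages cut cytosolic proteins into peptides with the proteasome, pump the peptides into the endoplasmic reticulum and display them at the cell surface on MHC class I molecules. The genes described here form the core of that route. Tap1 and Tap2 encode the paired chains of the peptide transporter, Tapbp encodes tapasin, which holds empty class I molecules at the transporter, and B2m encodes β2-microglobulin, the invariant light chain of every class I molecule. Psmb8, Psmb9 and Psmb10 encode the catalytic subunits that turn a constitutive proteasome into an immunoproteasome, Psme1 and Psme2 encode the α and β chains of the proteasome activator that IFNγ induces, and Nlrc5 encodes the transactivator of class I genes. The genes were chosen by this function, and the array held probes for all 10, 14 probes in all, out of 32282 genes or transcripts. The 4 genes with a second probe were B2m, Psmb8, Psme2 and Tapbp.

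RNA came from bone marrow-derived macrophages (BMDMs) of C57BL/6 mice aged 8 weeks, grown for 7 days with M-CSF, the growth factor of the macrophage lineage. WT cells were compared with KpCKO cells, which carry Keap1 flox/flox and LysM-Cre, so that Keap1, the protein that marks the transcription factor Nrf2 for destruction, is deleted in myeloid cells only and only as far as Cre acts. Cells of both genotypes were left untreated (Con), given LPS and IFNγ (M1) or given IL-4 (M2) for 6 h, which made 6 groups of 2 arrays each, 12 in all. There were 2 independent cultures with 1 mouse of each genotype in each, and the cells of a mouse were split over the stimuli. Culture 1 came from male and culture 2 from female mice, so culture and sex cannot be told apart. Con, M1 and M2 arrays were on 3 separate slides, and stimulus and slide cannot be told apart either. On each slide WT arrays were at positions 1 (culture 1) and 3 (culture 2) and KpCKO arrays at 2 (culture 1) and 4 (culture 2). Genotype and culture thus cannot be told apart from position on the slide. Levels are log2 signals in which 0 is the 75th percentile of the array, and a level of one gene is not compared with that of another because probes differ in brightness.

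Keap1 was lower in KpCKO than in WT cells by 1.46 (Con), 1.71 (M1) and 1.81 (M2) on the log2 scale, and Nqo1, a representative Nrf2 target, was higher by 3.23, 3.50 and 3.52 (limma adjusted p from 6.766e-05 to 0.03347 for these 6 differences). All 6 macrophage markers were above background on every array. Their mean level in WT cells was 5.43 and 5.48 (Con, cultures 1 and 2), 6.03 and 6.21 (M1) and 5.07 and 5.06 (M2). In KpCKO cells it was 5.08 and 5.12 (Con), 5.50 and 5.73 (M1) and 4.92 and 4.83 (M2). Lyz2 was at 6.998 in WT and 6.04 in KpCKO Con cells, 6.36 and 5.86 in M1 and 6.37 and 5.69 in M2. Fcgr1 was at 5.80 and 5.06 in Con, 7.35 and 6.14 in M1 and 4.61 and 4.01 in M2. Adgre1 was also lower in KpCKO cells throughout. Csf1r was higher in KpCKO cells in M1, and Itgam and Mertk in M2. The paper puts Cre under the locus of lysozyme M, encoded by Lyz2, in KpCKO but names none in WT mice. The part of the Cre allele in the Lyz2 values was not tested. Of the markers of other cells, 1 of 5 for T cells, 2 of 4 for B cells, 1 of 4 for NK cells, 2 of 4 for dendritic cells, 5 of 7 for neutrophils and 4 of 4 for stromal cells were above background on all arrays. The mean level of the 5 T cell markers ran from -6.37 to -5.90 over the Con arrays and from -4.54 to -4.06 over the M1 arrays, with Lck going from -6.20 to 1.41 in WT cells and Cd3d above background on no array. That of the 4 NK cell markers ran from -7.45 to -6.88 and from -6.59 to -5.89. Of these, Klrb1c, above background on all 12 arrays, went from -6.31 to -3.00 in WT and from -5.04 to -3.28 in KpCKO cells, and Gzma and Prf1 were above background on no array. The part of T and NK cells in the M1 rises was not tested. The mean level of the 4 dendritic cell markers was -4.60 and -4.87 (Con), -3.05 and -3.79 (M1) and -3.56 and -3.04 (M2) in WT cells. It was -3.19 and -3.25 (Con), -2.75 and -3.06 (M1) and -2.79 and -2.56 (M2) in KpCKO cells. Itgax differed most, at 0.42 in WT and 3.41 in KpCKO Con cells, 2.57 and 3.94 in M1 and 2.78 and 4.42 in M2. Flt3 was lower in KpCKO than in WT cells in M1 (-5.28 and -4.97) and M2 (-4.59 and -4.46). Zbtb46 and Siglech, higher in KpCKO cells in Con, M1 and M2, were above background on 10 and 7 of the 12 arrays. The 75th percentile of the signal, in intensity units, was lowest for M1, at 757 and 548 for WT and 906 and 787 for KpCKO cells, and the other 8 arrays had 966 to 1166.

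The mouse genome (GRCm38.p6) places Psmb9, Tap1, Psmb8 and Tap2 next to each other on chromosome 17, inside the MHC, with Tapbp on the same chromosome. Psme1 and Psme2 lie on chromosome 14 with the single gene Emc9 between them, Psmb10 and Nlrc5 lie on chromosome 8, and B2m on chromosome 2. Psmb9 and Tap1 are read away from each other from 1 shared stretch of 225 bases. RefSeq upstream sequences were at hand for 8 of the 10 genes (not Tap2 and Nlrc5). The following 3 stretches are printed because they hold the IRF/ISRE-like, NF-kB and GAS-like matches among these genes and the Y box that a divergent pair shares: the stretch between the Psmb9 and Tap1 starts (chr17:34187331-34187555, + strand), and the 250 bases before the start of B2m (chr2:122147437-122147686, + strand) and of Psmb8 (chr17:34197945-34198194, + strand). Capitals mark matches to the motifs named after them.

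Psmb9-Tap1 shared: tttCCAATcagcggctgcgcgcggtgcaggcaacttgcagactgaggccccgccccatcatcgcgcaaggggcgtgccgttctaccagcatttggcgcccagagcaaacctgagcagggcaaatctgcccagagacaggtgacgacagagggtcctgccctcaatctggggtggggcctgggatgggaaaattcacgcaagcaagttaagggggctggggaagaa
B2m: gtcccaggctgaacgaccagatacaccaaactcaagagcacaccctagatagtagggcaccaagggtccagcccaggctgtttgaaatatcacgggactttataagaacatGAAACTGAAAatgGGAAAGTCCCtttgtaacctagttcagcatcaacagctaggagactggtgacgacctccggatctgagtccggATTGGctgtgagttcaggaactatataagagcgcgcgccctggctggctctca
Psmb8: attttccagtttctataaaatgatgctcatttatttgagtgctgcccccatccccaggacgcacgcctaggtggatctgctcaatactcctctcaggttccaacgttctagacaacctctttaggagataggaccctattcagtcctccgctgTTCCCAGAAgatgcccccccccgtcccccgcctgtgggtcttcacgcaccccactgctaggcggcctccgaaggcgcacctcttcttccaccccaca

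Both strands of the 250 bases before each start were searched. An IRF/ISRE-like pair of repeats (GAAA, any 2 bases, GAAA) was found in 1 of the 8 genes, B2m, as GAAACTGAAA from -139 to -130 relative to the start, and in 2.98% of 32851 mouse promoters. The NF-kB consensus was also found only in B2m among the 8, as GGAAAGTCCC from -126 to -117, and in 3.90% of all promoters. A GAS-like palindrome (TTCNNNGAA), the form of site that STAT dimers bind, was found only in Psmb8, as TTCCCAGAA from -97 to -89, and in 7.02% of all promoters. The Y box (ATTGG, or CCAAT on the other strand) was found in B2m, Psmb9, Tap1 and Tapbp, the match of Psmb9 and Tap1 being the same bases of their shared stretch, and in 33.8% of all promoters. ARE-like motifs, the form Nrf2 binds with its small Maf partners, were found in none of the 8 (TGACNNNGC in 10.2% and TGAGNNNGC in 14.4% of all promoters). No matches overlapped each other. These are matches of letters in this window and not sites shown to be bound.

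All 10 genes were higher after M1 stimulation in both genotypes, and on every M1 array each gene stood above all 8 Con and M2 arrays. How many of all genes did so is not given here. In WT cells the rise ran from 3.72-fold for B2m to 40.1-fold for Tap1, and all 10 passed the limma test across all genes (adjusted p from 3.193e-06 to 1.37e-05), where 34.5% of the genes tested were called higher. In KpCKO cells all 10 passed as well (adjusted p from 6.207e-06 to 3.7e-05), against 24.8% of all genes called higher. The median change of the 10 was 3.05 on the log2 scale in WT and 2.64 in KpCKO cells, beside 0.13 and 0.03 over all genes tested. Quantile normalization moved the WT median of all genes to -0.08 and turned the split of calls from 7717 higher and 6408 lower to 6540 higher and 7933 lower, and the 10 genes were all still called higher. In bulk RNA, a higher share of cells that express a gene and more RNA per cell cannot be told apart.

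Tap1 rose the most. It stood at -0.07 and 0.59 in WT Con and at -0.65 and 0.39 in KpCKO Con (cultures 1 and 2), and rose to 5.59 and 5.58 in WT M1 and to 5.10 and 5.04 in KpCKO M1. The Tap1 level thus differed between cultures in Con cells and hardly at all in M1 cells, and the rise was 5.33 ± 0.28 in WT and 5.20 ± 0.28 in KpCKO cells (log2 difference ± standard error of the fit, n = 2 cultures). Tap2 rose from 1.21 and 1.67 to 5.31 and 5.55 in WT cells and from 1.25 and 1.76 to 4.83 and 5.02 in KpCKO cells. Its rise was 3.99 ± 0.11 in WT cells, 15.9-fold, and 3.42 ± 0.11 in KpCKO cells, 10.73-fold.

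Nlrc5, the transactivator, was above background on all 12 arrays although far below their 75th percentile in resting cells. It stood at -3.84 and -3.67 in WT Con and reached 1.04 and 1.57 in WT M1, a 33.3-fold rise. In KpCKO cells it went from -4.01 and -3.77 to 0.37 and 0.76, a 22.0-fold rise. No overlap was seen between the Nlrc5 levels of WT M1 and KpCKO M1 arrays.

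The immunoproteasome subunits rose by several-fold from levels already well above background. Psmb9, the subunit in place of the constitutive Psmb6, went from 2.87 and 3.39 to 6.71 and 7.22 in WT cells and from 2.60 and 3.44 to 6.33 and 6.77 in KpCKO cells. Psmb8, which takes the place of Psmb5, went from 3.73 and 3.77 to 6.91 and 7.08 in WT cells and from 3.74 and 3.88 to 6.54 and 6.59 in KpCKO cells. Psmb10, which takes the place of Psmb7, went from 4.89 and 5.18 to 7.69 and 8.07 in WT cells and from 4.83 and 5.29 to 7.42 and 7.76 in KpCKO cells. The rises of Psmb9, Psmb8 and Psmb10 were 14.3-fold, 9.50-fold and 7.18-fold in WT cells and 11.5-fold, 6.77-fold and 5.78-fold in KpCKO cells.

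The activator chains and the loading proteins moved the least of the 10. Psme1 went from 4.19 and 4.37 to 6.56 and 7.01 in WT cells and from 4.19 and 4.47 to 6.24 and 6.61 in KpCKO cells. Psme2 went from 6.21 and 6.23 to 8.79 and 9.01 in WT cells and from 5.97 and 6.10 to 8.44 and 8.54 in KpCKO cells. These rises were 5.68-fold and 6.39-fold in WT cells and 4.28-fold and 5.50-fold in KpCKO cells. Tapbp went from 4.86 and 4.98 to 7.35 and 7.52 in WT cells, 5.72-fold, and from 4.95 and 5.03 to 7.04 and 7.05 in KpCKO cells, 4.16-fold. B2m, with the smallest rise of the 10, went from 6.48 on both arrays to 8.30 and 8.45 in WT cells, and from 6.29 and 6.49 to 7.91 and 8.03 in KpCKO cells, 2.98-fold. The second probes rose too, by 2.004 for B2m, 3.38 for Psmb8, 3.14 for Psme2 and 2.70 for Tapbp in WT cells, beside 1.89, 3.25, 2.68 and 2.52 for the brighter ones.

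**Figure D1:**
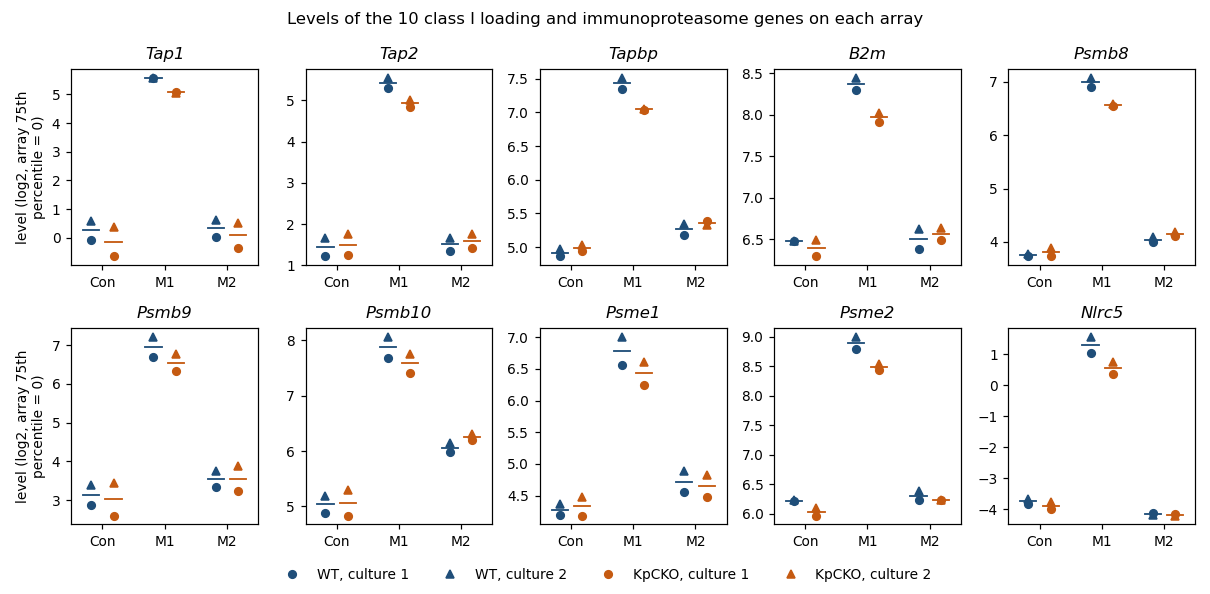
Level of each of the 10 genes (y axis, log2 signal with the 75th percentile of the array at 0, each panel on its own scale) in Con, M1 and M2 cells. Points are single arrays (circles culture 1, triangles culture 2; blue WT, orange KpCKO) and bars are means of 2. The M1 arrays stand above all others in every panel, and Psmb10 is also higher in M2 than in Con.

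The order of the 6 groups was the same at its top for every gene, with WT M1 first and KpCKO M1 second. Below them, the M2 arrays stood above the Con arrays with no overlap for Psmb10, Psmb8, Tapbp and Psme1 and below them for Nlrc5, and M2 and Con arrays overlapped for the others. Within Con the genotypes overlapped for all genes but Psme2, and within M2 for all but Psmb8 and Psmb10. The shares of all genes with these patterns are not given here. Culture 2 was above culture 1 in all 6 groups for Psmb9 (by 0.39 to 0.84), Tap2 (0.18 to 0.51), Psmb10 (0.10 to 0.45), Psme1 (0.18 to 0.45), B2m (0.01 to 0.23) and Psmb8 (0.04 to 0.18). For Tap1 the gap ran from -0.06 to 1.04 and for Nlrc5 from -0.05 to 0.54, with culture 2 higher in 4 of 6 groups for each. The fit held culture as a block because the design text pairs the replicates by culture.

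After IL-4, 9 of 10 genes had higher values than in Con in each genotype, and few passed the test. In WT cells 2 of 10 were called higher, Psmb10 and Psme1, beside 8.63% of all genes called higher, and in KpCKO cells 2 of 10, Psmb10 and Psmb9, beside 5.69% of all genes. Under an unadjusted p of 0.05 there were 6 of 10 in WT and 5 of 10 in KpCKO cells, beside 32.5% and 27.1% of all genes. Psmb10 went to 5.97 and 6.14 in WT M2 and to 6.20 and 6.30 in KpCKO M2, which was 2.03-fold and 2.28-fold above Con (limma adjusted p = 0.0027 and 0.0026). Psme1 was at 4.56 and 4.89 in WT M2, 1.36-fold above Con (adjusted p = 0.025), and at 4.48 and 4.83 in KpCKO M2, where the difference of 0.33 missed the threshold (adjusted p = 0.080). Psmb9 was at 3.35 and 3.74 in WT M2 (difference 0.41, adjusted p = 0.068) and at 3.23 and 3.88 in KpCKO M2, 1.45-fold above Con (adjusted p = 0.044). The genotypes were not shown to differ in these responses, since the test of the difference gave an adjusted p of 1 for all 10 genes (0 called, beside 0.00895% of all genes), with 0 of 10 under an unadjusted p of 0.05.

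Psmb10 was the gene whose M2 call held without any single array. Leaving out any 1 array of the groups compared left 1 call in each genotype, and that was Psmb10. The calls of Psme1 in WT and Psmb9 in KpCKO cells were lost in the fit without the replicate block as well, where 1 gene was called in each genotype. Psmb8 and Tapbp stood higher in M2 by 0.29 and 0.35 in WT cells (adjusted p = 0.064 and 0.054) and by 0.34 and 0.37 in KpCKO cells (0.054 and 0.060), which missed the threshold although M2 and Con arrays did not overlap, and both passed in each genotype with trended and robust variances, where 5 of 10 genes were called. Tap1 and Tap2 differed by 0.06 and 0.07 in WT cells and by 0.22 and 0.09 in KpCKO cells, and B2m by 0.02 and 0.17. Nlrc5 had lower values, at -4.13 and -4.19 in WT M2 and at -4.17 and -4.21 in KpCKO M2, differences of -0.41 ± 0.16 (adjusted p = 0.13) and -0.30 ± 0.16 (adjusted p = 0.28) that did not pass, and with normexp background correction the WT difference was 0.31. The second probe of B2m differed by -0.12 in WT and -0.03 in KpCKO cells. The median over the 10 was 0.19 in WT and 0.27 in KpCKO cells, beside -0.01 and 0.01 over all genes.

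**Figure D2:**
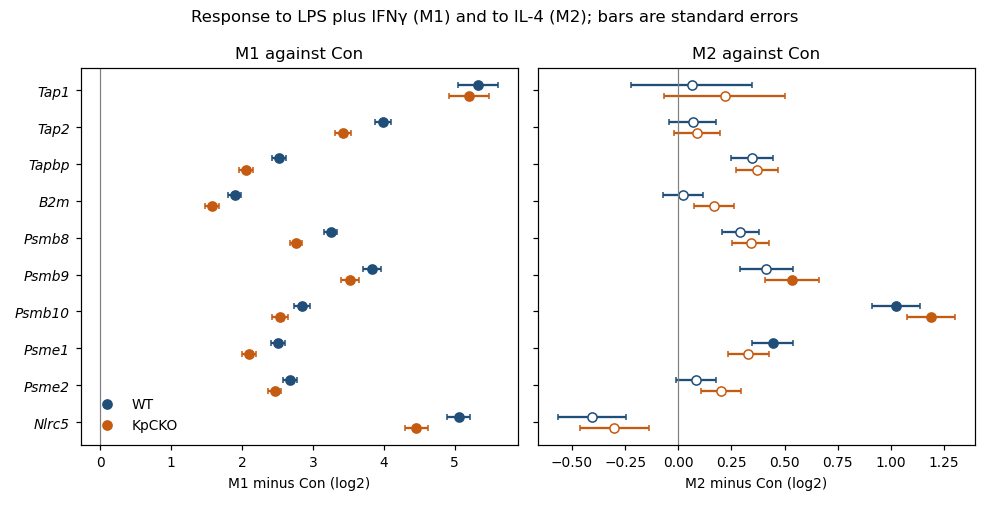
Difference from Con (x axis, log2, with a wider scale on the left panel than on the right) for M1 (left) and M2 (right) in WT (blue) and KpCKO (orange) cells; bars are standard errors of the fit, n = 2 cultures, and filled circles passed the test. Every M1 rise passed, from 1.57 for B2m in KpCKO to 5.33 for Tap1 in WT cells, and of the M2 differences those of Psmb10 (both genotypes), Psme1 (WT) and Psmb9 (KpCKO) did.

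No difference between the genotypes was detected with 2 cultures in resting or IL-4-treated cells. In Con, 0 of 10 passed (limma adjusted p from 0.4537 to 0.9724, 0 under an unadjusted p of 0.05), beside 2.21% of all genes called in either direction. The differences ran from -0.39 ± 0.28 for Tap1 to 0.07 ± 0.10 for Tapbp with a median of -0.03. In M2, 0 of 10 passed (adjusted p from 0.5221 to 0.9906, 0 under an unadjusted p of 0.05), beside 1.93% of all genes, with differences from -0.23 ± 0.28 for Tap1 to 0.19 ± 0.11 for Psmb10 and a median of 0.03.

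In M1 cells all 10 genes had lower values in KpCKO than in WT, in both cultures, where the median difference over all genes tested was -0.09. The test called 6 of them lower, beside 8.59% of all genes called lower, and 9 of 10 had an unadjusted p under 0.05, beside 34.1% of all genes. Nlrc5 differed most, at 0.37 and 0.76 in KpCKO beside 1.04 and 1.57 in WT, which was 1.67-fold lower (difference -0.74 ± 0.16, adjusted p = 0.029). Tap2 was 1.42-fold lower (adjusted p = 0.028), Psmb8 1.34-fold (0.024), B2m 1.33-fold (0.034), Psme2 1.32-fold (0.034) and Tapbp 1.31-fold (0.041), and for none of these did WT M1 and KpCKO M1 arrays overlap. The share of all genes without such overlap, or lower in both cultures, is not given here.

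The remaining 4 missed the threshold. Tap1 differed by -0.52 ± 0.28 (adjusted p = 0.24) although its M1 arrays did not overlap between genotypes. Its standard error was the widest of the 10, and its cultures differed by up to 1.04 in the other groups that enter the same fit. Psmb9 differed by -0.42 ± 0.13 (0.066), Psme1 by -0.36 ± 0.10 (0.051) and Psmb10 by -0.29 ± 0.11 (0.12), and in these the difference between cultures was as wide as that between genotypes, with the WT array of culture 1 just below the KpCKO array of culture 2. The second probes gave -0.40 for B2m, -0.43 for Psmb8, -0.38 for Psme2 and -0.52 for Tapbp, beside -0.41, -0.43, -0.41 and -0.39 for the brighter probes.

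Apart from Nlrc5 the M1 difference ran from -0.29 to -0.52, with a median over the 10 of -0.41, beside -0.09 over all genes tested. Within culture 1 the differences ran from -0.66 (Nlrc5) to -0.27 (Psmb10), and within culture 2 from -0.81 (Nlrc5) to -0.31 (Psmb10). The calls rested on the model of the spread and on the scaling. Without the replicate block 0 of 10 were called, and leaving out an array left 3 calls (Nlrc5, Psmb8 and Psme2) without WT M1 replicate 1 and 0 without WT M1 replicate 2, KpCKO M1 replicate 1 or KpCKO M1 replicate 2. Under quantile normalization all 10 stayed below 0, with a median of -0.17 beside 0.00 over all genes, and Nlrc5 was the 1 gene called, and the split over all genes went from 1657 higher and 1920 lower to 2030 higher and 1350 lower. The 75th percentile signals of the M1 arrays and the mean levels of the macrophage and dendritic cell markers, given above, also differed between the genotypes, and their part in the result was not tested. An exact test of 2 against 2 arrays cannot go below p = 0.333.

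**Figure D3:**
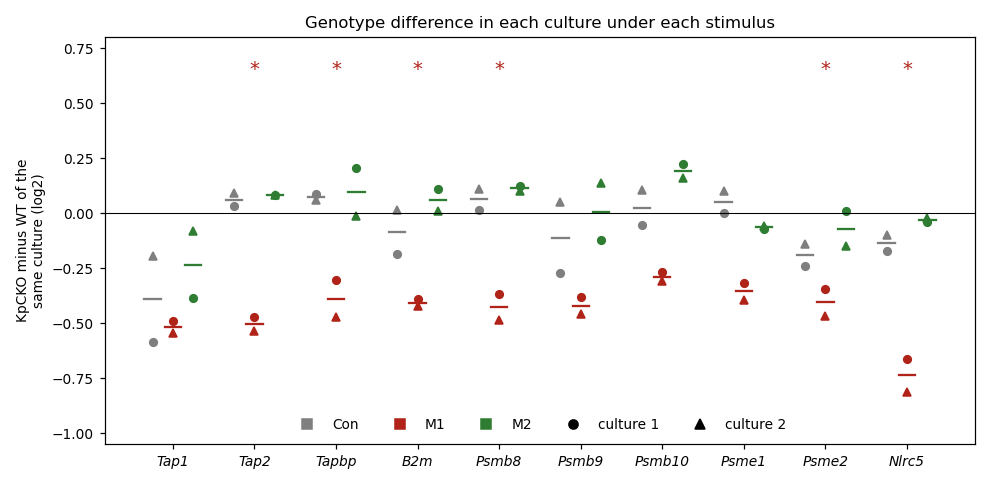
KpCKO minus WT within a culture (y axis, log2) for each gene in Con (grey), M1 (red) and M2 (green); circles are culture 1, triangles culture 2, bars the mean of 2, and a red star marks a difference that passed the test. The M1 values lie between -0.81 and -0.27 in every gene and culture, while Con and M2 values lie between -0.59 and 0.22.

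Whether the M1 response itself differed between genotypes was tested as the difference of differences. It was negative for all 10 genes, from -0.13 ± 0.40 for Tap1 to -0.60 ± 0.23 for Nlrc5, with a median of -0.36 beside -0.07 over all genes. None passed (limma adjusted p from 0.17 to 0.8965, 6 of 10 under an unadjusted p of 0.05, beside 16.4% of all genes), where 16 of 22340 genes, 0.0716%, did. The nearest were Psmb8 (-0.49 ± 0.12, adjusted p = 0.17), Tap2 (-0.57 ± 0.16, 0.18) and Tapbp (-0.46 ± 0.14, 0.21). A lower level in M1 cells was thus called for 6 genes and a smaller response for 0. Under quantile normalization the values of Psmb10, Psme2 and Tap1 lay above 0 and the median was -0.10.

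The immunosubunits were set against the constitutive subunits whose place they take, as changes within a culture. Psmb5, Psmb6 and Psmb7 rose in M1 WT cells too, by 0.64, 0.99 and 1.37. The immunosubunit rose more in all 12 comparisons (3 pairs, 2 genotypes, 2 cultures), by 1.40 to 2.89. The 3 pairs were read on the same arrays, so the 12 are not independent. How many other genes rose more than these counterparts is not given here. The excess in WT cells was 2.61 ± 0.01 (SD, n = 2) for Psmb8 over Psmb5, 2.84 ± 0.07 for Psmb9 over Psmb6 and 1.47 ± 0.10 for Psmb10 over Psmb7. In KpCKO cells it was 1.98 ± 0.24, 2.63 ± 0.18 and 1.52 ± 0.16. In M2 the immunosubunit change was again the greater in 12 of 12, but by as little as 0.02 for Psmb8. The M2 excess of Psmb8 in WT cells was 0.06 ± 0.06. It was widest for Psmb10, 0.72 ± 0.21 in WT and 0.93 ± 0.35 in KpCKO cells.

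**Figure D4:**
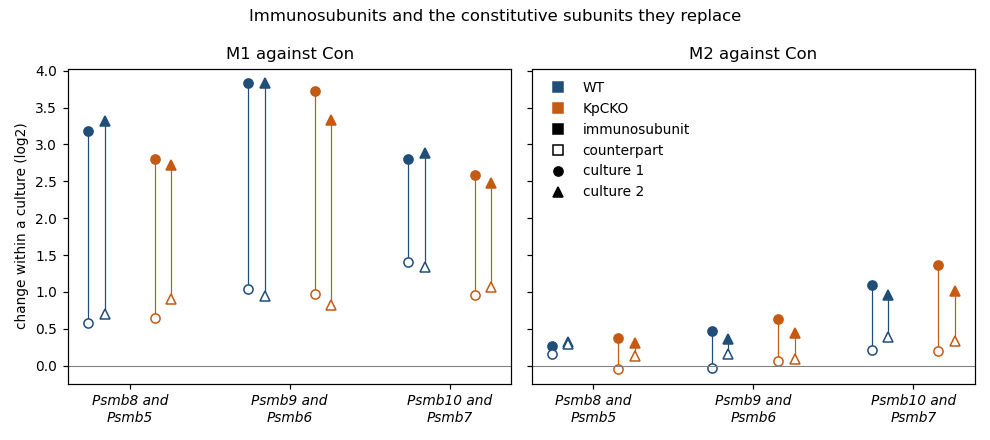
Change from Con (y axis, log2) of each immunosubunit (filled) and its constitutive counterpart (open) in M1 (left) and M2 (right), joined within a culture (circles 1, triangles 2; blue WT, orange KpCKO). The filled point is above the open one in all 24 joined pairs, by 1.40 to 2.89 in M1 and by 0.02 to 1.17 in M2. The gene pairs share the same arrays and are not independent.

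Other proteasome genes moved less. The list of 6 constitutive counterparts held Psmb5, Psmb6, Psmb7, the assembly factor Pomp and the activators Psme3 and Psme4. In M1, 6 of 6 were called higher in WT cells (median 0.83), beside 34.5% of all genes. In KpCKO cells 5 of 6 were, beside 24.8% of all genes, with Psme4 missing at 0.15 (limma adjusted p = 0.42). In M2 and between genotypes in M1, 0 of 6 were called by limma. The unadjusted p was under 0.05 for 3 of 6 in M2 WT cells (32.5% of all genes) and 1 of 6 in M2 KpCKO cells (27.1%). Between genotypes in M1 it was under 0.05 for 2 of 6 (34.1% of all genes). Of these, Psmb5 was higher in KpCKO cells (0.46, limma adjusted p = 0.055) and Psmb7 was lower (-0.31, 0.091).

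The class I heavy chains, the partners of B2m at the cell surface, rose with it. Of 8 with a probe, 6 were called higher in M1 in both genotypes, beside 34.5% of all genes in WT and 24.8% in KpCKO cells. The rises in WT cells were 1.75 for H2-Q4, 1.74 for H2-T23, 1.67 for H2-K1, 1.56 for H2-M3, 1.54 for H2-Q7 and 1.38 for H2-D1. These genes are near-copies of each other, so their probes may share signal and single values are uncertain. Mr1, which presents vitamin metabolites and not peptides, fell by 2.25 in WT and by 2.06 in KpCKO cells, and Cd1d1, which presents lipids, stood at -0.02 and 0.41 (limma adjusted p = 0.95 and 0.21). In M2 and between genotypes in M1, 0 of 8 were called by limma, with 4 of 8 between genotypes in M1 (34.1% of all genes), 2 of 8 in M2 WT (32.5%) and 0 of 8 in M2 KpCKO cells (27.1%) under an unadjusted p of 0.05. Between genotypes in M2, 0 of 8 were called by limma and 5 of 8 had an unadjusted p under 0.05 (14.3% of all genes), with a median of 0.26. The median genotype difference in M1 was -0.30, and those of the 6 heavy chains that rose ran from -0.38 to -0.29. In Con the median was 0.21, with 0 of 8 called by limma and 3 of 8 under an unadjusted p of 0.05 (14.1% of all genes). For the difference of the M1 responses the median was -0.45, beside -0.36 for the 10 genes. There, 0 of 8 were called by limma and 5 of 8 had an unadjusted p under 0.05 (16.4% of all genes).

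Among the loading and trimming partners, 4 of 6 were called higher in M1 in both genotypes, beside 34.5% of all genes in WT and 24.8% in KpCKO cells. Tapbpl, the tapasin-related editor of bound peptides, rose by 3.71 in WT and 3.73 in KpCKO cells, and Erap1, which trims peptides in the endoplasmic reticulum, by 1.51 and 1.55. Lnpep, an endosomal trimming peptidase, rose by 2.27 and 1.19. It was the one partner called lower in KpCKO than in WT M1 cells (-1.24, limma adjusted p = 0.0081), beside 8.59% of all genes. Sec22b, a vesicle fusion protein, rose by 0.31 and 0.48, and the chaperones Calr (0.25 and 0.00) and Canx (0.22 and 0.10) did not pass in either genotype. In M2, Tapbpl rose by 0.72 in WT and 0.51 in KpCKO cells (adjusted p = 0.0080 and 0.034), and Lnpep fell by 0.71 in WT cells (0.037).

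Of 11 regulators of these genes, 7 were called higher and 3 lower in M1 in both genotypes, beside 34.5% higher and 28.7% lower over all genes in WT and 24.8% and 25.4% in KpCKO cells. The kinase Jak2 rose by 4.79 in WT and 3.63 in KpCKO cells, and the transcription factor Irf1 by 4.58 and 4.57. Ciita, the class II transactivator related to Nlrc5, rose by 4.13 ± 0.86 and 5.17 ± 0.86 (5.74 and 2.52 in the WT and 6.66 and 3.68 in the KpCKO cells of cultures 1 and 2), and Rfx5, a subunit of the factor that brings both transactivators to promoters, by 2.14 and 2.43, while its other subunits Rfxank and Rfxap fell by 1.17 and 0.96 in WT cells and by 0.58 and 0.80 in KpCKO cells. The receptor chain Ifngr1 fell by 0.99 and 0.68. Between genotypes in M1, 1 of 11 was called, Jak2, at -1.21 (limma adjusted p = 0.012), beside 16% of all genes in either direction. Irf1 differed by -0.13 (limma adjusted p = 0.75). In M2, Jak2 rose by 1.98 and 1.93, Rfxap fell by 1.04 and 0.92, and Ifngr2 rose by 0.43 in WT cells.

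The mean profile of the 10 genes over the 12 arrays, each gene scaled to its own mean and SD, was set beside every gene, as a description. The members followed it with r from 0.947 (Psmb10) to 0.998 (Psmb8). The 5 named genes most like it outside the list were Dpf2 (r = 0.997), Rmdn3, Dock4, Pnp and Ggct (0.995 to 0.994). The likeness was set mainly by the step between the 4 M1 arrays and the rest, and 1187 genes had r over 0.95.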

How the data were processed

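The authors hybridised Cy3-labelled total RNA to 1-colour Agilent arrays and deposited, per the file headers, the Feature Extraction 10.7.3.1 output of each array, with a background-subtracted signal intensity per spot. They also deposited a matrix of normalized log2 values made with GeneSpring, used here only as an alternative. Its direction and scale matched the scanner signals, and its rows are centred per probe. No per-sample column went unused (0).

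Processed signals were taken as log2 less the 75th percentile of the array. Outlier spots were dropped, spots of a probe averaged, and 26718 of 41174 probes matched to 18224 RefSeq symbols by accession. A gene was represented by its brightest probe. It was tested where both arrays of some group were flagged well above background (22340 to 22353 genes per comparison) with limma 3.58.1 in R 4.3.3, in 1 fit of 6 groups with culture as a block. P-values were adjusted by Benjamini-Hochberg over all genes tested, and an adjusted p under 0.05 was called. The design text pairs the replicates: each culture held 1 mouse of each genotype, and deviations of same-numbered arrays correlated with r from 0.163 to 0.597 in 15 of 15 pairs of groups (22070 genes). With 2 arrays a group, their number limits the precision. The variance rested on 5 residual degrees of freedom shared by all groups and 1.92 prior degrees of freedom. The cells of a mouse were split over the stimuli, so a mouse gave several arrays, which the fit reported did not block together. With mouse as a random block, the correlation within a mouse was -0.051. The fit was tested on simulated data.

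Sequences are from RefSeq (GRCm38.p6); the array design used mm9, so no probe coordinates are given. All 10 members were named, and from each companion list the genes that passed a test or had the largest or smallest difference. Some of these are not reported here. Members, lists and tests were chosen with earlier results of these data known. Alternatives covered normalization, background, filters, probes, block, variance model, the methods' t-test and each array left out. That unpaired t-test is the one the authors state for their macrophage data in general. For their arrays they took a fold-change cutoff met in both independent cultures, which was not applied here.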

Additional observations from a re-analysis of the deposited data

Results flagged for a closer look

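In 4 genes both cultures had lower values in KpCKO than in WT cells under M1 and higher values under M2. The share of all genes with this pattern is not given here. Their M2 differences were small, from 0.06 for B2m to 0.19 for Psmb10, and none was called (limma adjusted p from 0.5221 to 0.8582). The difference between these genotype differences (M1 minus M2, log2) was -0.59 for Tap2, -0.54 for Psmb8, -0.48 for Psmb10 and -0.47 for B2m, and it was not tested. Under quantile normalization the M2 difference of B2m was below 0, and the second probe of Psmb8 was lower in KpCKO cells in M2 too, at -0.08.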

How the results depend on the processing

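The rise of all 10 genes in M1 was called in both genotypes under every alternative but the methods' t-test after adjustment, which called 7 in WT and 0 in KpCKO cells. As in the fit reported, 0 of 10 were called between genotypes in Con, in M2 and in either response under all alternatives run. For the genotype difference in M1, 6 calls became 1 with no filter on dim probes, 1 with quantile normalization, 0 with normexp, 0 with only the groups compared, 0 without the replicate block, and 3 unadjusted and 0 adjusted by the methods' t-test; leaving out an array gave 0 to 3. It became 8 with only genes above background on all 12 arrays, 8 with trended and robust variances, and 7 with the floor, with mouse as a random block or with probes in place of genes. The median was -0.40 with normexp, beside -0.22 over all genes, and -0.17 with quantile normalization, beside 0.00 over all genes. Less the median of all genes it was -0.33 in the fit reported, -0.18 with normexp and -0.17 with quantile normalization. For M2 in WT cells, 2 calls became 5 with only genes above background on all 12 arrays, 5 with trended and robust variances, 1 with no filter, 1 without the replicate block, 1 with normexp, 1 with only the groups compared, 0 with the adjusted t-test and 1 to 1 without an array. For M2 in KpCKO cells, 2 became 4 with the filter on all arrays, 5 with trended variances, 1 with no filter, without the replicate block, with normexp or with quantile normalization, 0 with only the groups compared or the adjusted t-test, and 1 to 1 without an array. The share of all genes called higher in M2 was 8.63% in WT and 5.69% in KpCKO cells in the fit reported. It was 11.9% and 8.3% with the filter on all arrays, 10.2% and 7.09% with trended variances and 3.84% and 2.31% with no filter. The cause of these changes was not tested. Fits without an array left its group with 1 array, assumed to vary like the others.

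Of 1660 values of the 10 genes under alternatives, 1496 kept direction and side of the threshold, 96 lost a call, 23 gained one and 45 changed sign, none of them called. Sign changes with quantile normalization were Psmb10 -0.0358 for the genotypes in Con, B2m -0.0635, Psmb9 -0.000905 and Tapbp -0.000196 for the genotypes in M2, Psmb10 0.0102, Psme2 0.183 and Tap1 0.0929 for the M1 response, Tapbp -0.0385 for the M2 response and B2m -0.0352 for M2 in WT. With normexp they were Psme1 0.0169 and Psme2 0.0353 for the genotypes in M2, Nlrc5 -0.498 for the M2 response, and B2m -0.0678, Nlrc5 0.308, Psme2 -0.0204 and Tap2 -0.0125 for M2 in WT. With the mean of probes they were Psmb8 -0.0242 for the genotypes in Con and B2m -0.0472 for M2 in WT, and with the authors' matrix Psmb9 -0.000858 for the genotypes in M2.

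With an array left out, ranges crossed 0 for the genotypes in Con in Psmb10 (-0.0718 to 0.123), Psmb9 (-0.278 to 0.0555), Psme1 (-0.0367 to 0.138) and Tap2 (-0.0400 to 0.163), and for the genotypes in M2 in Nlrc5 (-0.188 to 0.124) and Psmb9 (-0.0913 to 0.106). They crossed 0 for the M1 response in Tap1 (-0.470 to 0.215), and for the M2 response in Nlrc5 (-0.0520 to 0.261), Psmb9 (-0.0481 to 0.286), Tap1 (-0.161 to 0.473), Tap2 (-0.0812 to 0.121) and Tapbp (-0.0576 to 0.104). For M2 in KpCKO cells they did in Tap1 (-0.0973 to 0.536) and Tap2 (-0.0137 to 0.189), and in WT cells in B2m (-0.0592 to 0.103) and Tap1 (-0.0192 to 0.146).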
